A study of Danio rerio with 6 samples.

Results

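Of the 27335 genes in the deposited expression table, 36 were taken as genes for nuclear subunits. Of these, 20 belong to cytochrome c oxidase (complex IV) and 16 to ATP synthase (complex V). They were chosen by gene symbol alone, *cox4* to *cox8* followed by a, b, c or i, and *atp5* without *atp5s* and *atp5sl*. This rule uses no expression value, although it was set with earlier results of these data known. It misses subunit genes listed under other symbols, such as *zgc:86599*, named *cox5ba* in the RefSeq table. Counts and sums of both complexes therefore cover these 36 genes and not every subunit gene. RNA was measured in whole zebrafish larvae at 5 days post fertilization (dpf), with 3 wild-type pools and 3 pools of maternal-zygotic (MZ) *tafazzin* mutants, each of 25 larvae. The mutants were homozygous for a CRISPR/Cas9 allele with a 1 base pair deletion in exon 3 that shifts the reading frame, and their mothers were homozygous as well, so neither maternal nor zygotic wild-type transcript was supplied. Wild-type larvae carried 2 wild-type *tafazzin* alleles and no treatment is listed for either genotype. Mutant and wild-type embryos are described as offspring of separate sibling incrosses and elsewhere as 1 clutch. Mothers homozygous for the mutant allele cannot have larvae with 2 wild-type alleles, so the genotypes had different mothers. The effects of the parents and of the genotype therefore cannot be told apart.

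Complex IV is the last enzyme of the mitochondrial electron transport chain. It passes electrons from cytochrome c to oxygen and pumps protons across the inner membrane, and ATP synthase uses the returning protons to turn a ring of c subunits and drive ATP synthesis in its F1 head. The catalytic core of complex IV and the proton channel of complex V are encoded in the mitochondrial genome, while the subunits described here are encoded in the nucleus. Both complexes bind cardiolipin, the inner membrane phospholipid whose acyl chains are remodeled by Tafazzin, and ATP synthase dimers shape the cristae.

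Values are FPKM, a fragment number divided by transcript length and by the size of the library, which is a level per length and can be compared between genes. Pools are named by the number of their deposited column, 0 to 2. The *tafazzin* transcript, listed as *taz*, was at 12.3, 12.04 and 8.53 FPKM in wild-type pools 0, 1 and 2 and at 6.09, 4.58 and 3.84 FPKM in mutant pools 0, 1 and 2 (log2 fold change -1.04, limma adjusted p = 0.0468). It was lower in every mutant pool, and wild-type pool 2 was the lowest of the wild-type pools. Wild-type pool 2 also lay nearest to the mutants on the first principal component of all genes, which held 36.1% of the variance, at -10.5 against -29.0 and -32.0 for the other wild-type pools and 16.4 to 35.2 for the mutant pools. The counts and medians of both complexes are given with and without this pool, and single genes where leaving it out changes a call. Since this pool lay nearest to the mutants, leaving it out can by itself widen the difference between genotypes. FPKM summed to between 501725 and 540974 per pool, and the fragments behind it ranged from 0.841 to 1.301 times those of mutant pool 0. Changes were tested on log2(FPKM + 1) with limma over 21843 genes, and p-values were adjusted by the Benjamini-Hochberg method and called under 0.05. Log2 fold changes are given ± their standard error from that fit.

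All 36 genes were detected in every pool and none was removed by the filter on low values. No gene of either complex passed the test, where 0.911% of all genes tested did (0.696% higher and 0.215% lower). Among these 36 genes the smallest adjusted p from limma was 0.113 in complex IV and 0.0907 in complex V. At an unadjusted p under 0.05 from limma, 6 of 20 complex IV genes were higher in mutant pools on average and 1 was lower, and 7 of 16 complex V genes were higher and 0 were lower. Over all genes 9.88% were higher and 6.4% were lower by that rule. Without wild-type pool 2 the counts of higher means were 7 in complex IV and 10 in complex V, against 12% of all genes, and 1 of the 36 genes was lower. In that setting 1 complex V gene, *atp5g1*, passed, where 422 of all genes passed against 199 with all pools.

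The fold changes of both complexes were small and mostly positive. The log2 fold change was above 0 for 15 of 20 complex IV genes (75%) and 14 of 16 complex V genes (87.5%), where 50.4% of all genes were above 0. The median log2 fold change was 0.19 in complex IV (range -0.44 to 0.76) and 0.25 in complex V (range -0.03 to 0.71), beside 0.0025 over all genes tested. All 3 mutant pools lay above all 3 wild-type pools for 6 complex IV genes (30%) and 7 complex V genes (43.8%), where 11.9% of all genes did. All mutant pools lay below all wild-type pools for 1 complex IV gene and 0 complex V genes, where 10.5% of all genes did. Without wild-type pool 2, 9 complex IV genes (45%) and 10 complex V genes (62.5%) lay above, where 20.7% of all genes did, and *cox4i1*, *cox7c*, *cox8a*, *atp5h*, *atp5j* and *atp5l* were those added. In that setting 2 complex IV genes (10%) and 0 complex V genes lay below, where 17.5% of all genes did, and *cox4i2* was the one added. The median log2 fold change was then 0.19 in complex IV and 0.30 in complex V. It was above 0 for 15 of 20 complex IV and 14 of 16 complex V genes. Single genes depended on single pools. Leaving out some 1 pool moved the log2 fold change by over 1.5 times for 15 of 20 complex IV and 10 of 16 complex V genes. Genes of 1 complex share the same pools and are not replicates, so these shares describe the lists and are not a test of them.

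Complex IV RNA was summed over the 20 genes taken by symbol, which leave out *zgc:86599* (*cox5ba*). The sums were 2377, 2534 and 2664 FPKM in wild-type pools 0, 1 and 2. They were 2941, 2716 and 3260 FPKM in mutant pools 0, 1 and 2. The sums did not overlap, with mutant pool 1 close above wild-type pool 2, and the ratio of the means was 1.18. For the 16 complex V genes the sums were 3213, 3579 and 3645 FPKM in wild-type and 3895, 3976 and 4275 FPKM in mutant pools. These sums did not overlap either, and the ratio of the means was 1.16. In RNA of whole larvae, a different number of cells of a type and a different amount of RNA per cell cannot be told apart.

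**Figure D1:**
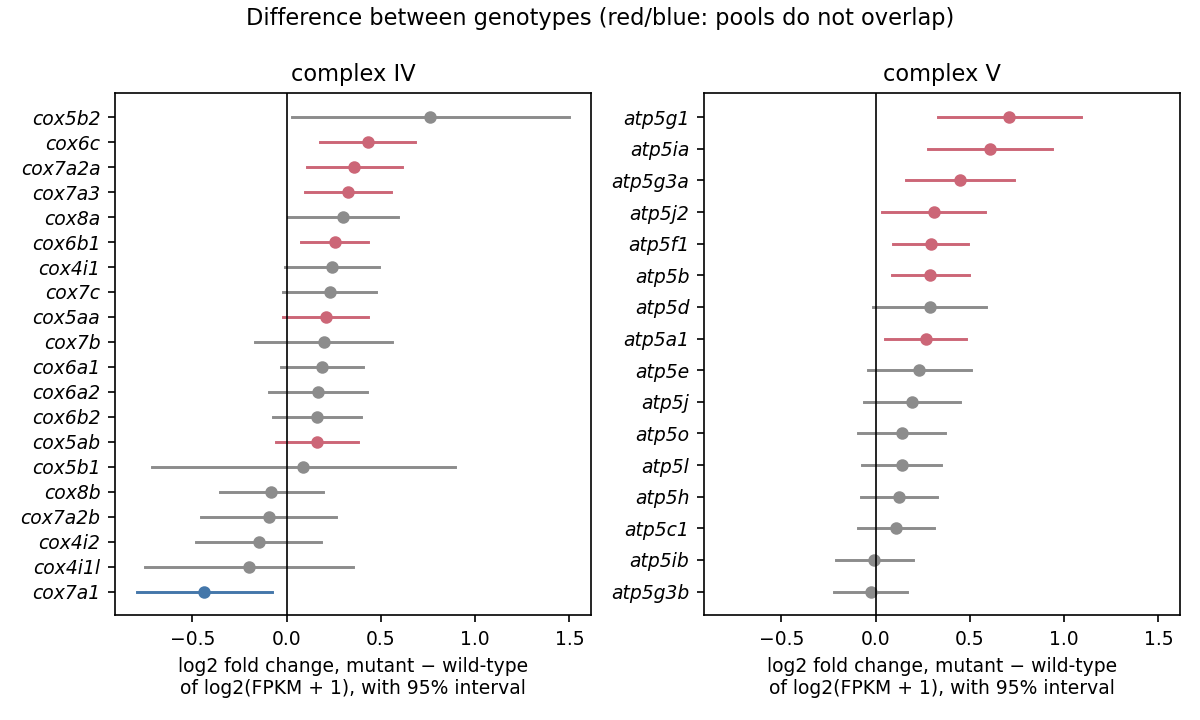
Log2 fold change of each cytochrome c oxidase and ATP synthase gene in MZ *tafazzin* mutants against wild-type larvae on the log2(FPKM + 1) scale, with 95% confidence intervals from limma over 3 pools per genotype. Most points lie above 0, from -0.44 for *cox7a1* to 0.76 for *cox5b2*, and none passed the adjusted threshold.

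ATP synthase is described first by the F1 head. The α subunit gene *atp5a1* and the β subunit gene *atp5b*, which together form the catalytic hexamer, were among the most abundant genes of both complexes. *atp5b* was at 450.4, 464 and 515 FPKM in wild-type pools and at 558, 582 and 608 FPKM in mutant pools (log2 fold change 0.29 ± 0.09, limma adjusted p = 0.164). *atp5a1* was at 387, 440.3 and 471 FPKM in wild-type pools and at 504, 520.2 and 531 FPKM in mutant pools (log2 fold change 0.27 ± 0.10, limma adjusted p = 0.219). Every mutant pool was above every wild-type pool for both genes, and in the wild-type group pool 0 was the lowest for each. The δ subunit gene *atp5d*, part of the rotor's central stalk, was at 108, 128 and 136 FPKM in wild-type pools and at 126, 157 and 173 FPKM in mutant pools, and mutant pool 0 overlapped the wild-type range. The other central stalk genes, *atp5c1* for γ and *atp5e* for ε, overlapped between genotypes with log2 fold changes of 0.11 and 0.23. The reads of *atp5c1* are less certain, since it is the only one of the 36 genes whose deposited locus is shared with other genes. In all, the log2 fold changes of the 5 F1 genes ran from 0.11 to 0.29, with a median of 0.27.

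The peripheral stalk, which holds the F1 head still while the ring turns, gave 4 genes with positive log2 fold changes between 0.13 and 0.29. The b subunit gene *atp5f1* was at 189, 210.0 and 203 FPKM in wild-type pools and at 240.1, 232 and 266 FPKM in mutant pools (log2 fold change 0.29 ± 0.09, limma adjusted p = 0.151). Its genotypes did not overlap. The genes for OSCP (*atp5o*), subunit d (*atp5h*) and coupling factor 6 (*atp5j*) overlapped between genotypes, with log2 fold changes of 0.14, 0.13 and 0.19.

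The c ring is the part of the motor that carries protons, and mammals encode the same mature c subunit in several genes that differ mainly in their import sequence. Its 3 genes in the table did not share 1 pattern. *atp5g1*, on chromosome 3 from 23599293 to 23604234 (GRCz11), had the smallest p of the 36 genes. It was at 129.9, 158 and 202 FPKM in wild-type pools and at 249, 233 and 314 FPKM in mutant pools (log2 fold change 0.71 ± 0.17, limma adjusted p = 0.0907). The genotypes did not overlap, and wild-type pool 2 was the nearest to the mutants. Without wild-type pool 2 the log2 fold change was 0.87 and the gene passed (limma adjusted p = 0.0369). Of all genes 422 passed in that setting, against 199 with all pools. That setting leaves out the wild-type pool nearest to the mutants. Over all choices of 1 pool left out, the log2 fold change of *atp5g1* ran from 0.56 to 0.87. Its limma adjusted p ran from 0.0369 to 0.276.

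*atp5g3a*, on chromosome 9 from 2333894 to 2341127, was at 96.3, 131 and 132 FPKM in wild-type pools and at 155, 159 and 174 FPKM in mutant pools (log2 fold change 0.45 ± 0.13, limma adjusted p = 0.135). Its mutant pools were all higher, and wild-type pool 0 was low. *atp5g3b*, on chromosome 6 from 10830843 to 10835922, had the highest mean level of the 36 genes. It was at 598, 634 and 577 FPKM in wild-type pools and at 573, 600.1 and 602 FPKM in mutant pools. The genotypes overlapped, with wild-type pool 1 above every mutant pool, and the 95% interval of the log2 fold change ran from -0.22 to 0.17.

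The remaining membrane subunits include e and g, which sit at the dimer interface and are needed for dimers in yeast. The subunit e gene *atp5ia*, on chromosome 21 from 20377889 to 20381467, had the lowest mean level of complex V. It was at 40.6, 39.5 and 46.3 FPKM in wild-type pools and at 72.4, 50.7 and 73.0 FPKM in mutant pools (log2 fold change 0.61 ± 0.14, limma adjusted p = 0.0922). All mutant pools were higher, mutant pool 1 the least so. Without mutant pool 1, its lowest mutant pool, *atp5ia* passed (log2 fold change 0.78, limma adjusted p = 0.0446), where 55 of all genes passed. Over all choices of 1 pool left out, its log2 fold change ran from 0.52 to 0.78. The limma adjusted p of *atp5ia* then ran from 0.0446 to 0.280. Its paralog *atp5ib*, on chromosome 5 from 9070381 to 9073420, was at 130.6, 151 and 142 FPKM in wild-type pools and at 130.1, 141 and 150.4 FPKM in mutant pools. Those ranges coincided, with a 95% interval of the log2 fold change from -0.21 to 0.20. The subunit f gene *atp5j2* was at 79.2, 81.0 and 84.3 FPKM in wild-type pools and at 94.8, 88.8 and 123 FPKM in mutant pools, above in each mutant pool and highest in mutant pool 2. The subunit g gene *atp5l* overlapped between genotypes (log2 fold change 0.14).

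**Figure D2:**
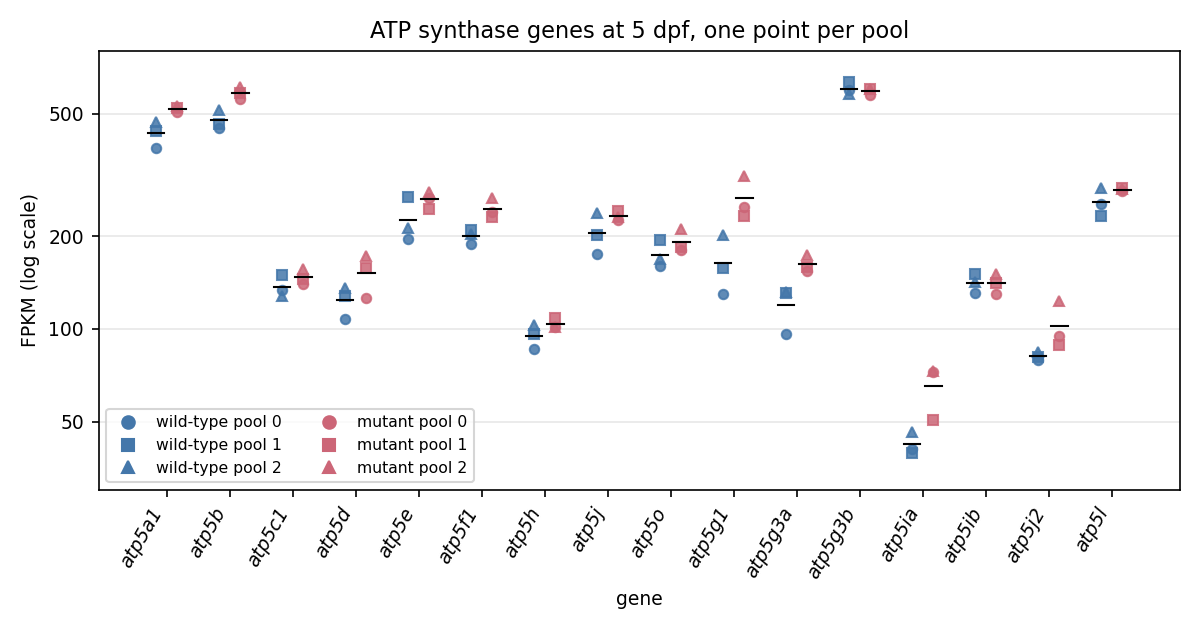
FPKM on a log axis for the 16 ATP synthase genes in each of 3 wild-type and 3 MZ *tafazzin* mutant pools, with the group mean as a short line. The mutant pools lie above the wild-type pools for 7 genes, while *atp5g3b*, the most abundant, and *atp5ib* overlap between genotypes.

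Cytochrome c oxidase gave a wider spread of levels, from a mean of 455 FPKM for *cox8a* to 8.15 FPKM for *cox4i1l*. Among the genes with a single copy in the table, *cox6c* encodes a small membrane subunit and lies on chromosome 6 from 52235394 to 52241530. It had the smallest p of the complex IV genes taken by symbol. *cox6c* was at 179.8, 155 and 188 FPKM in wild-type pools and at 243, 206 and 258 FPKM in mutant pools (log2 fold change 0.43 ± 0.11, limma adjusted p = 0.113). The genotypes did not overlap. The small membrane subunit genes *cox7b* and *cox7c* overlapped between genotypes, with log2 fold changes of 0.20 and 0.23. With 1 pool left out these ran from 0.055 to 0.35 for *cox7b* and from 0.13 to 0.33 for *cox7c*.

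Subunit 4 binds adenine nucleotides and is encoded by a main gene, *cox4i1*, and by *cox4i2*, which in mammals is the hypoxia-induced isoform. *cox4i1* was at 253, 231 and 281 FPKM in wild-type pools and at 289.8, 276 and 339 FPKM in mutant pools, and mutant pool 1 fell within the wild-type range. *cox4i2* was at 32.9, 29.96 and 23.1 FPKM in wild-type pools and at 22.7, 24.9 and 29.4 FPKM in mutant pools. It lies on chromosome 23 from 18944495 to 18951148, and *tafazzin* lies there from 4915965 to 4925666. An effect of the shared chromosome was not tested. *cox4i1l* was at 9.66, 8.26 and 7.83 FPKM in wild-type pools and at 5.86, 11.8 and 5.54 FPKM in mutant pools. The genotypes overlapped for all 3 genes, and the log2 fold changes were 0.24 for *cox4i1*, -0.15 for *cox4i2* and -0.20 for *cox4i1l*. Without wild-type pool 2 that of *cox4i2* was -0.29, and all its mutant pools then lay below the remaining wild-type pools.

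Subunits 5a and 5b lie on the matrix side, and 5b binds zinc. The 5a genes *cox5aa* and *cox5ab* were almost equal in every pool. *cox5aa* was at 119.9, 124 and 114 FPKM in wild-type pools and at 131, 127 and 158 FPKM in mutant pools, and *cox5ab* was at 119, 124 and 120.3 FPKM in wild-type pools and at 125, 129 and 155 FPKM in mutant pools. Both lay above without overlap, by a narrow margin except in mutant pool 2. The log2 fold changes were 0.21 and 0.16, with 95% intervals that include 0.

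The 5b genes under this naming, *cox5b1* and *cox5b2*, are minor. *cox5b2* was at 7.77, 18.3 and 9.12 FPKM in wild-type pools and at 17.5, 14.01 and 29.2 FPKM in mutant pools, and *cox5b1* was at 21.7, 7.87 and 22.3 FPKM in wild-type pools and at 18.3, 12.3 and 20.9 FPKM in mutant pools. In wild-type pool 1 *cox5b1* was low where *cox5b2* was high, and how reads shared by both paralogs were divided is not given, so the log2 fold change of *cox5b2* (0.76 ± 0.32, limma adjusted p = 0.289) is uncertain. The sum of both genes overlapped between genotypes. A gene that the choice by symbol does not take, *zgc:86599*, is named *cox5ba* in the RefSeq table and had a far higher level. It was at 254, 257 and 272 FPKM in wild-type pools and at 332, 314 and 357 FPKM in mutant pools, without overlap (log2 fold change 0.35 ± 0.08, limma adjusted p = 0.0902). Of the other genes outside the choice by symbol, *ndufa4l*, *ndufa4*, *atp5md* and *atp5mj* overlapped between genotypes. The gene *atpif1b*, given below with the accessory genes, did not overlap and was higher in mutant pools. *ndufa4l* and *ndufa4*, which are not in the complex I list either, had log2 fold changes of 0.14 and -0.02. Those of *atp5md* and *atp5mj* were 0.30 and 0.07.

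Subunits 6a and 6b come in pairs. In mammals, *COX6A1* is the form of most tissues and *COX6A2* that of heart and skeletal muscle. *cox6a1* was at 382, 398 and 379 FPKM in wild-type pools and at 444, 396 and 486 FPKM in mutant pools, and *cox6a2* was at 29.7, 29.2 and 22.9 FPKM in wild-type pools and at 31.0, 31.5 and 29.1 FPKM in mutant pools. Both overlapped between genotypes. The log2 fold change of *cox6a2* was 0.17, and 0.049 without wild-type pool 2. Subunit 6b faces the intermembrane space, where cytochrome c docks. *cox6b1* was at 59.05, 62.0 and 64.0 FPKM in wild-type pools and at 75.2, 70.1 and 76.1 FPKM in mutant pools (log2 fold change 0.26 ± 0.08, limma adjusted p = 0.161), all mutant pools being higher. *cox6b2* was at 127, 159 and 147 FPKM in wild-type pools and at 151, 159 and 173 FPKM in mutant pools, with overlap.

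The subunit 7a family held the one gene of the 36 whose mutant pools all lay below the wild-type pools. *cox7a1*, on chromosome 15 from 20403079 to 20405796, is the heart and muscle form of the subunit in mammals. It was at 10.6, 10.5 and 10.5 FPKM in wild-type pools and at 5.88, 7.54 and 9.49 FPKM in mutant pools (log2 fold change -0.44 ± 0.16, limma adjusted p = 0.22). The wild-type pools were close together and the mutant pools spread, with pool 0 the lowest. Its unadjusted p was 0.0226, and it was no longer under 0.05 without wild-type pool 0, wild-type pool 1 or mutant pool 0.

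*cox7a2a*, whose counterpart in mammals is the ubiquitous form, was at 72.7, 96.2 and 81.9 FPKM in wild-type pools and at 100.4, 105 and 115 FPKM in mutant pools (log2 fold change 0.36 ± 0.11, limma adjusted p = 0.166). *cox7a3*, named *cox7a2l* in the RefSeq table and linked in mouse and zebrafish to the joining of complexes III and IV into supercomplexes, was at 58.8, 63.5 and 61.0 FPKM in wild-type pools and at 80.5, 67.0 and 84.2 FPKM in mutant pools (log2 fold change 0.33 ± 0.10, limma adjusted p = 0.16). Both had every mutant pool above every wild-type pool. *cox7a2b* was at 33.6, 28.8 and 27.1 FPKM in wild-type pools and at 35.6, 26.3 and 22.9 FPKM in mutant pools, and overlapped.

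Subunit 8 is a small membrane subunit. *cox8a* was at 364, 393 and 468 FPKM in wild-type pools and at 509, 435 and 563 FPKM in mutant pools (log2 fold change 0.30 ± 0.13, limma adjusted p = 0.293), and wild-type pool 2 overlapped the mutants. *cox8b*, the heart and muscle form in many mammals, was at 35.2, 41.9 and 44.4 FPKM in wild-type pools and at 34.1, 43.3 and 37.4 FPKM in mutant pools, with overlap. Within complex IV, the sign of the log2 fold change was counted by level. Of its 9 genes that averaged 100 FPKM or more, 9 had a positive log2 fold change, with a median of 0.21, whereas 3 of its 8 genes under 50 FPKM did, with a median of -0.09. Between these levels lay *cox7a3*, *cox6b1* and *cox7a2a*, all with a positive log2 fold change. The low genes include *cox7a2b*, whose sign turned without mutant pool 2, and *cox5b1*, whose sign turned without wild-type pool 1. In complex V, 11 of 13 genes at 100 FPKM or more had a positive log2 fold change, and none averaged under 50 FPKM. Its genes with a negative log2 fold change, *atp5g3b* and *atp5ib*, averaged 597 and 141 FPKM. The cuts at 100 and 50 FPKM were not planned, and the same counts by level were not made over all genes. Spearman's rho of mean level and log2 fold change was 0.49 across the 20 complex IV genes and -0.25 across the 16 complex V genes. These are correlations across genes measured in the same pools.

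**Figure D3:**
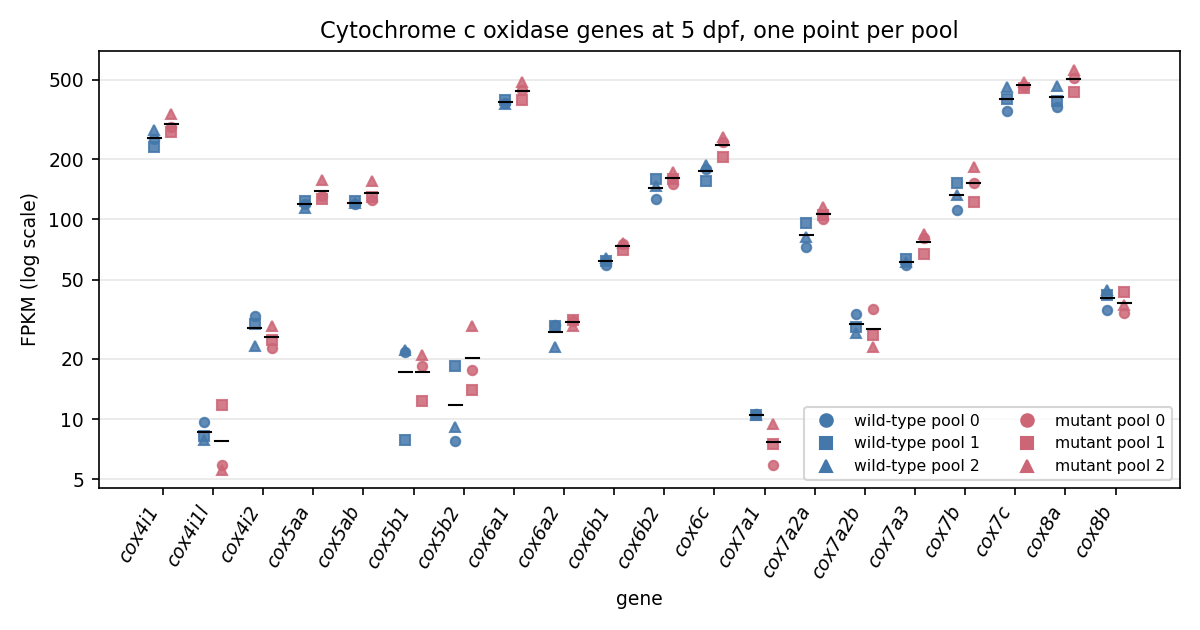
FPKM on a log axis for the 20 cytochrome c oxidase genes in each of 3 wild-type and 3 MZ *tafazzin* mutant pools, with the group mean as a short line. The mutant pools lie above the wild-type pools for 6 genes and below for *cox7a1* alone, and *cox5b1* and *cox5b2* swing in opposite directions in wild-type pool 1.

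Paralogs of the same subunit were compared by the log2 ratio of the 2 genes within each pool, which does not depend on how pools were scaled apart from the added 1 FPKM. Of 18 pairs, 6 had ratios that did not overlap between genotypes. Each of these had an exact permutation p of 0.1, two-sided, the smallest that 3 pools against 3 allow, and 0.3 after adjustment over the 18 pairs, so no pair could pass. For the levels of single genes, 22.3% of all genes tested did not overlap in either direction. No such share was computed for ratios of other genes. Several of the 6 pairs share a gene, such as *atp5g3b* or *cox7a1*, so they are not independent.

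In the c ring, *atp5g3b* made up 72.6%, 68.7% and 63.3% of the summed FPKM of the 3 genes in wild-type pools 0, 1 and 2 and 58.7%, 60.5% and 55.3% in mutant pools 0, 1 and 2. Its share was lower in every mutant pool, and wild-type pool 2 was again the nearest. *atp5g1* made up 18.4% ± 3.41 in wild-type pools and 25.9% ± 2.67 in mutant pools (SD, n = 3), and *atp5g3a* 13.5% ± 1.54 and 15.9% ± 0.0864. The log2 ratio of *atp5g1* to *atp5g3b* differed by 0.74 between genotypes, with 0.59 to 0.93 when any 1 pool was left out. That of *atp5g3a* to *atp5g3b* differed by 0.47, with 0.33 to 0.58. The summed RNA of the ring was 886 ± 53.9 FPKM in wild-type pools and 1020 ± 61.5 FPKM in mutant pools, a ratio of 1.15.

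In subunit e, *atp5ia* made up 23.7%, 20.8% and 24.7% of the pair in wild-type pools and 35.8%, 26.5% and 32.7% in mutant pools. All mutant shares were higher, and the log2 ratio differed by 0.61, with 0.48 to 0.79 when any 1 pool was left out. In the 7a family, *cox7a1* made up 5.70% ± 0.409 in wild-type pools and 3.46% ± 0.741 in mutant pools. The log2 ratio of *cox7a1* to *cox7a2a* differed by -0.80, with -0.91 to -0.69 over the pools left out, and that to *cox7a3* by -0.76, with -0.87 to -0.58. The ratio of *cox7a2b* to *cox7a3* differed by -0.42, with -0.56 to -0.22, and was -0.22 without mutant pool 2. In contrast the *cox5aa* share of its pair was 49.6% ± 0.787 in wild-type and 50.4% ± 0.843 in mutant pools, and that of *cox6a1* was 93.4% ± 0.788 and 93.5% ± 0.862. These shares overlapped between genotypes. How the authors' counting divided reads between near-identical paralogs is not given in the sources used here, so the shares carry that uncertainty.

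**Figure D4:**
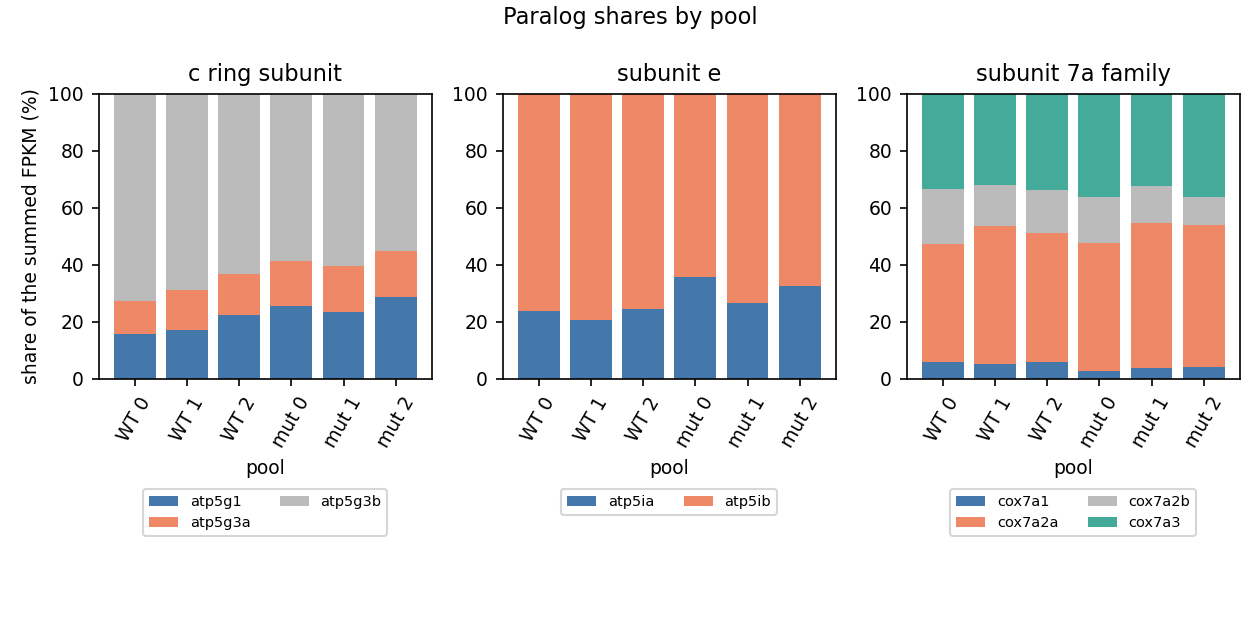
Share of the summed FPKM (%) held by each paralog of the c ring subunit, subunit e and the subunit 7a family, 1 bar per pool for 3 wild-type (WT) and 3 MZ *tafazzin* mutant (mut) pools. The *atp5g3b* share is lower in each mutant pool (55.3% to 60.5%) than in any wild-type pool (63.3% to 72.6%), and the *atp5ia* share is higher.

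The order of the pools within a genotype recurred across the genes. Mutant pool 2 was the highest mutant pool for 29 of the 36 genes, 16 of 20 in complex IV and 13 of 16 in complex V. Wild-type pool 0 was the lowest wild-type pool for 22 of the 36 genes, 10 in complex IV and 12 in complex V. The median deviation from each gene's own mean in complex V was -0.23, -0.09 and -0.04 on the log2 scale in wild-type pools 0, 1 and 2 and 0.06, 0.07 and 0.20 in mutant pools 0, 1 and 2. In complex IV it was -0.14, -0.02 and -0.08 in wild-type and 0.11, -0.01 and 0.25 in mutant pools. Mutant pool 1 was therefore level with wild-type pool 1 in complex IV and above it in complex V. Without mutant pool 2 the median log2 fold change of complex IV was 0.11, and without wild-type pool 0 that of complex V was 0.16. The counts of highest and lowest pools were not made over all genes. The median deviation over all genes was -0.032 in wild-type pool 0 and 0.006 in mutant pool 2. In complexes I, II and III with cytochrome c it was -0.18, -0.30 and -0.39 in wild-type pool 0. In mutant pool 2 it was 0.23, 0.29 and 0.38 in these lists.

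**Figure D5:**
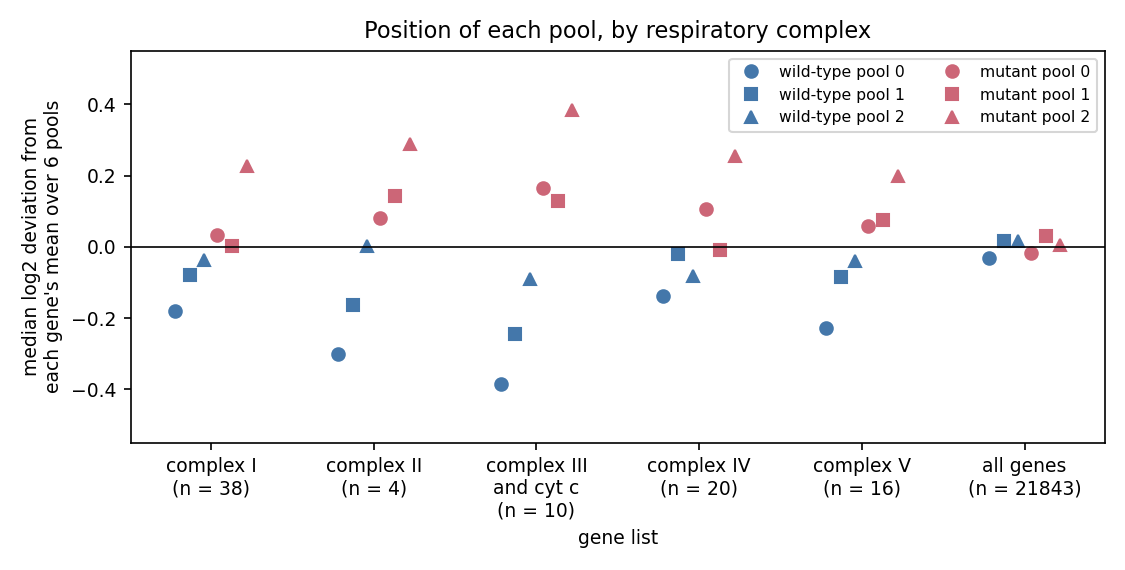
Median deviation of genes from their own mean over the 6 pools (log2 scale), with a point for each pool. The lists are complex I, complex II, complex III with cytochrome c, complex IV, complex V and all genes tested. Wild-type pool 0 has the lowest median in complexes IV and V (-0.14 and -0.23) and mutant pool 2 the highest (0.25 and 0.20).

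The other genes of oxidative phosphorylation give the setting, and their counts are to be read against the 9.88% of all genes that were higher and 6.4% that were lower at an unadjusted p under 0.05, and the 0.911% that passed. Of 38 complex I subunit genes none passed and 13 (34.2%) were higher at an unadjusted p under 0.05 from limma, with 0 lower and a median log2 fold change of 0.22. Of 4 complex II genes none passed and 2 (50%) were higher by that rule. Among 10 genes of complex III and cytochrome c, 2 passed and both rose, and 8 (80%) were higher at an unadjusted p under 0.05. The cytochrome c gene *cycsb*, which encodes the electron donor of complex IV, was at 53.3, 61.3 and 64.6 FPKM in wild-type pools and at 124, 108 and 166 FPKM in mutant pools (log2 fold change 1.12 ± 0.15, limma adjusted p = 0.019). The core protein gene *uqcrc2b* rose by a log2 value of 0.63 (limma adjusted p = 0.0459). The median over these 10 genes was 0.43. Whether the lists differ from complexes IV and V was not tested.

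Assembly factors of complex IV gave 0 of 27 genes that passed and 5 (18.5%) higher at an unadjusted p under 0.05 from limma, with a median log2 fold change of 0.32. The nearest to the threshold were *lrpprc*, whose product stabilizes mitochondrial transcripts in mammals (log2 fold change 0.59, limma adjusted p = 0.0542), and *higd1a*, of the hypoxia-induced Higd family, at 3.90, 5.80 and 10.6 FPKM in wild-type pools and 16.9, 17.1 and 27.5 FPKM in mutant pools (limma adjusted p = 0.0585). A further list of 10 genes joined assembly and accessory genes of complex V to genes taken by related symbols, such as *atp5md*, *atp5mj* and *dmac2*. None of them passed and 1 (10%) was higher at an unadjusted p under 0.05 from limma, a share level with the 9.88% of all genes. This was *atpif1b*, one of 2 genes for the inhibitor protein that blocks ATP hydrolysis by the enzyme, with means of 38.4 ± 4.91 FPKM in wild-type and 48.6 ± 7.90 FPKM in mutant pools (SD, n = 3, limma adjusted p = 0.275).

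Markers of cell types, among them muscle, photoreceptors and ionocytes, which are rich in mitochondria, were read beside the 2 complexes. Over all genes tested 0.911% passed, and 11.9% lay above and 10.5% below without overlap. At an unadjusted p under 0.05 from limma, 9.88% of all genes were higher and 6.4% were lower. Of 10 fast skeletal muscle markers none passed, 0 were higher at an unadjusted p under 0.05 from limma, and the median log2 fold change was -0.10. Their summed level was 27667 to 34796 FPKM in wild-type and 28252 to 28850 FPKM in mutant pools. Of 5 slow skeletal muscle markers none passed and 1, *smyhc1*, was higher at an unadjusted p under 0.05, and the sums overlapped at 223 to 290.4 FPKM in wild-type and 230.4 to 267 FPKM in mutant pools. Of 7 heart markers none passed, and the sums overlapped at 58.6 to 74.7 and 60.9 to 70.8 FPKM. Of 7 photoreceptor markers 1 passed, *pde6h*, which was lower, while 5 had a positive log2 fold change and the median was 0.33. Their sums overlapped at 2683 to 4615 FPKM in wild-type, lowest in pool 0, and 4188 to 4736 FPKM in mutant pools, highest in pool 2. Of 9 markers of mitochondrion-rich skin ionocytes 2 passed, *ca2* and *rhcgb*, both higher. Of the 9, 8 had a positive log2 fold change, 6 (66.7%) lay above without overlap, and the median was 0.46. Their sums were 248 to 280.2 FPKM in wild-type and 349 to 472 FPKM in mutant pools, highest in mutant pool 2. Of 6 exocrine pancreas markers 1 passed, *ela3l*, which was lower, and all 6 lay below without overlap, with sums of 8637 to 9596 and 6222 to 6797 FPKM. Of 8 liver, 6 neuron and 4 neutrophil markers none passed, and the median log2 fold changes were -0.10, -0.0007 and 0.36. Among the neutrophil markers only *mmp13a* lay above without overlap (log2 fold change 1.05). The others overlapped, with log2 fold changes of 0.53 for *npsn*, 0.19 for *mpx* and -0.04 for *lyz*. At an unadjusted p under 0.05 from limma, 3 liver markers (*fga*, *fgb* and *fgg*) were higher and 1 (*serpina1*) was lower. By that rule 6 ionocyte, 2 photoreceptor, 1 heart and 1 neutrophil marker were higher. All 6 exocrine pancreas markers and 1 photoreceptor marker were lower, and no neuron marker met the rule. The part of these cell types in the result of the 2 complexes was not tested.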

How the data were processed

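RNA came from whole larvae, 3 pools of 25 per genotype. The submitters' processing notes name Trim Galore 0.4.2 for trimming, STAR 2.5.3 for alignment to GRCz11 and Cufflinks 2.2.1 for quantification. The authors deposited FPKM for each gene and pool. Their p-values, fold changes and group means, and a second sheet of genes they called, were not used. Column names give genotype and a number but not the sample, so pools are unpaired replicates. All 6 per-sample columns were used and 0 were left out. The methods describe the pools as taken from 1 clutch, though the 2 genotypes cannot share a mother. The p-values measure the spread between these pools, and effects of clutch or parents cannot be told apart from genotype.

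The filter required an average of 0.5 FPKM and left 21843 of 27335 genes. Values on the log2(FPKM + 1) scale were fitted in limma 3.58.1 (R 4.3.3) with a mean-variance trend. Fold changes on this scale understate those of low genes. The script was tested on simulated data. The sources used here give no read numbers, so no counting interval was computed. The depth is known only relative to 1 pool, from the value 1 fragment adds to low genes. No 2 pools were identical in more than 0.0603% of genes.

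Members and lists were chosen with earlier results of these data known. Pools are given in full for the 8 genes of smallest p per complex, paralog families and the highest and lowest genes. All 36 symbols matched the RefSeq table, in which 17 have newer names. Coordinates are as deposited. Of 21275 symbols shared with the RefSeq table, 99.06% lie on the same chromosome there. Settings also tried were quantile normalization or median scaling, a filter of 5 FPKM or none, a pseudocount of 0.1, no trend, the column number as a block and each pool left out. The alternatives for paralog ratios, unadjusted counts, counts without overlap and the median of all genes were chosen after seeing the data. Tables and figures used Python 3.11.15, pandas 2.3.3 and matplotlib 3.10.9.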

Additional observations from a re-analysis of the deposited data

How the results depend on the processing

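Over all genes, 199 passed. The number was 6 with no filter on low values, 38 without the trend and 15 to 422 with 1 pool left out. Complex IV had no gene that passed in any of these, nor with the other pseudocount, filter or scalings. Complex V had 0 to 1 with 1 pool left out, *atp5g1* without wild-type pool 2 and *atp5ia* without mutant pool 1, and otherwise none apart from the block described next. At an unadjusted p under 0.05, 4 to 9 complex IV and 5 to 10 complex V genes were higher with 1 pool left out, where the share of all genes ran from 7.06% to 12%. The median log2 fold change ran from 0.11 to 0.27 in complex IV and from 0.16 to 0.30 in complex V with 1 pool left out. It was 0.13 and 0.18 under quantile normalization, and neither complex's median changed sign. Of the 36 genes, 32 kept the sign of their log2 fold change under all 13 alternatives. Of the other 4, *atp5g3b* was at 0.11 under quantile normalization and between -0.057 and 0.011 with 1 pool left out. With 1 pool left out *cox5b1* ran from -0.37 to 0.33, *atp5ib* from -0.060 to 0.048 and *cox7a2b* from -0.27 to 0.039. The causes were not tested. The effect of depth on low genes was not measured.

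With the column number as a replicate block, 353 genes passed, including 1 of complex IV, *cox6c* (adjusted p = 0.0483 from limma), and 1 of complex V, *atp5g1* (adjusted p = 0.0298 from limma). Deviations from the group means of same-numbered columns correlated at 0.035, 0.003 and 0.075 across genes, and not every pool correlated best with its own number. The columns share only a number, so the pairing was not used.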
